A study of Mus musculus with 12 samples.

Results

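CD8 T cells of the mouse mammary gland were described in 12 single-cell libraries, 1 library per treatment group. They were chosen by their own counts of unique molecular identifiers (UMIs), which count captured RNA molecules. Barcodes with fewer than 500 genes or 1000 UMIs were dropped, as were those with over 5% of UMIs from mitochondrial genes. A kept barcode was a CD8 T cell with at least 2 UMIs of Cd3d, Cd3e and Cd3g together, at least 1 UMI of Cd8a and Cd8b1 together, 0 UMIs of Cd4, Cd79a and Pdgfra, and fewer than 5 UMIs of C1qa, C1qb and C1qc together. This gave 682 cells of 46257 kept barcodes, or 1.47%. Both chains of the CD8 coreceptor were counted in 508 of them, Cd8a alone in 77 and Cd8b1 alone in 97. Just inside the limits, 10 members held 2 Cd3 UMIs and 78 held 1 Cd8 UMI. Just outside, 13 barcodes met every other limit with 1 Cd3 UMI. Of kept barcodes with at least 2 Cd3 UMIs that met the C1q, Cd79a and Pdgfra limits, 901 had neither Cd4 nor Cd8 UMIs and 123 had both. A further 203 with a Cd8 UMI fell outside for C1q, Cd79a or Pdgfra. None of these was counted as a CD8 or CD4 T cell. Levels of these marker genes chose the cells and are not results.

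CD8 T cells recognise peptides on MHC class I through a T cell receptor that signals through the CD3 chains, with CD8 as coreceptor. Once activated they kill target cells with perforin and granzymes and secrete interferon gamma and chemokines. Cells that have not met antigen keep the lymph node homing receptor Ccr7, while memory cells recirculate or settle in tissues such as the mammary gland, where Itgae and Cd69 help to retain them.

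All mice were female, of strain C57BL/6J, 43 weeks old when sampled. Intact mice kept their ovaries, and mice of the other 11 groups received 4-vinylcyclohexene diepoxide (VCD), which destroys ovarian follicles, at 160 mg/kg daily for 15 days. VCD_Vehicle received no hormone, VCD_E2 received estradiol (E2, 1 µg per animal daily for 1 week), VCD_E2_P4 also progesterone (P4, 1 mg per animal daily), and VCD_E2_ICI a single 5 mg dose of the estrogen receptor antagonist ICI with E2. A low dose of polybrominated diphenyl ethers (PBDEs, flame retardants), with PBDE-47 at 0.05, PBDE-100 at 0.0028 and PBDE-153 at 0.0063 mg/kg daily, was fed for 20 weeks to VCD_Low_PBDE, VCD_Low_E2 and VCD_Low_E2_P4. A high dose, with 1, 0.056 and 0.126 mg/kg daily of the same compounds, was fed for 1 week to VCD_High_PBDE, VCD_High_PBDE_E2 and VCD_High_PBDE_E2_P4, so dose and duration cannot be told apart. VCD_Vehicle_NormEnv was a second vehicle group, kept where PBDE may have reached the mice from cage plastics. Sesame oil was the vehicle, and groups without PBDE ate matched food with DMSO. Lymph nodes were taken out before the fourth glands were digested. The number of animals behind each library is not given in the sources used here, so the spread between libraries may be partly technical.

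A library held 1996 to 7570 kept barcodes and 15 to 179 CD8 T cells, with 88402 to 1592875 UMIs summed over the CD8 T cells. The median member had 5857 UMIs and 1892.5 genes, near the 6271 UMIs of CD4 T cells (885 cells, chosen by the mirror rule) and the 5662 UMIs of NK cells (501 cells). No barcode of a member was shared between libraries. Of the 682 members, 69 also carried many UMIs of macrophage, dendritic, B, fibroblast, endothelial or epithelial markers. These 69 had a median of 17677 UMIs against 5374 in the other 613, with Cd74 at 16800 against 48.64 CPM (UMIs of a gene scaled to the total of the summed cells) and Ccl5 at 4767 against 15100 CPM. They came from 10 libraries, with 0 in Intact and VCD_High_PBDE. Comparisons were repeated without them, and no doublet caller was run.

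CD8 T cells were a small and variable share of the gland. VCD_Vehicle held 1.54% (59 cells), VCD_Low_PBDE 1.17% (58 cells) and VCD_High_PBDE 0.494% (15 cells) of kept barcodes. With E2 the shares were 0.818% in VCD_E2 (30 cells), 2.03% in VCD_Low_E2 (87 cells) and 1.14% in VCD_High_PBDE_E2 (30 cells). E2 with P4 gave 4.09% in VCD_E2_P4 (179 cells), 0.872% in VCD_Low_E2_P4 (66 cells) and 1.1% in VCD_High_PBDE_E2_P4 (22 cells). VCD_E2_P4 stood above all other libraries, with an exact 95% binomial interval of 3.53 to 4.72%, and the other libraries of the 3 hormone arms overlapped. Outside this layout the share was 0.723% in Intact (25 cells), 0.632% in VCD_Vehicle_NormEnv (23 cells) and 3.11% in VCD_E2_ICI (88 cells, interval 2.5 to 3.82%). Intervals cover counting error only.

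The 9 VCD libraries form a layout of 3 hormone arms by 3 PBDE levels, which allows the hormone labels to be permuted within each PBDE level. The share of kept barcodes was 1.07% ± 0.533 (SD, n = 3) without hormone and 1.68% ± 1.26 (SD, n = 6) with hormone, a difference of 0.606 percentage points (two-sided exact permutation p = 0.593). The smallest p that the 27 arrangements allow is 0.037. A difference in the share of CD8 T cells was thus within the spread between libraries.

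Among CD4 and CD8 T cells together, the CD8 share was 47.6% in VCD_Vehicle, 27.1% in VCD_Low_PBDE and 25.9% in VCD_High_PBDE. It was 29.1% in VCD_E2, 31.0% in VCD_Low_E2 and 46.2% in VCD_High_PBDE_E2. With E2 and P4 it was 63.7% in VCD_E2_P4, 52.4% in VCD_Low_E2_P4 and 50% in VCD_High_PBDE_E2_P4. All 3 libraries with P4 thus lay above all 6 other libraries of the layout, although this ordering was noticed in the values and 3 pairs cannot give an exact p under 0.25. The planned comparison of both hormone arms (45.4% ± 13.3, SD, n = 6) with no hormone (33.5% ± 12.2, SD, n = 3) gave a difference of 11.9 percentage points (two-sided exact permutation p = 0.222). Intact held 33.3%, VCD_Vehicle_NormEnv 50% and VCD_E2_ICI 58.7%.

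**Figure D1:**
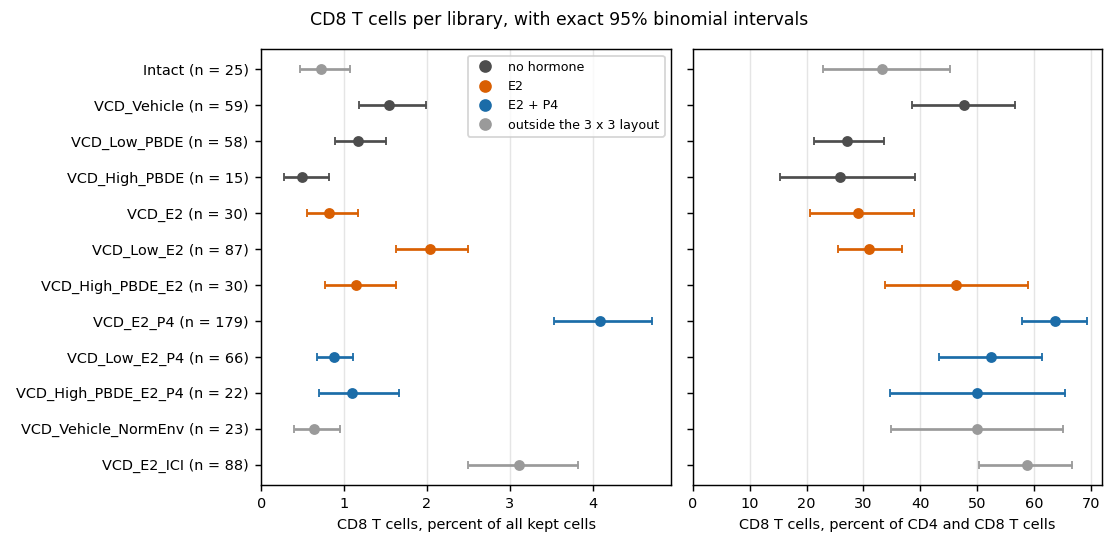
CD8 T cells of each library as a percent of all kept barcodes (left) and of CD4 and CD8 T cells together (right), with points coloured by hormone arm, bars for exact 95% binomial intervals and the number of CD8 T cells in brackets. VCD_E2_P4 lies highest in both panels at 4.09% and 63.7%, and in the right panel the 3 libraries given P4 lie at 50% or above.

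In every library, most CD8 T cells carried RNA of the effector genes Ccl5 and Nkg7. Ccl5, a chemokine that memory CD8 T cells hold ready, was counted in 97.1% of members at 7411 CPM in the lowest library, 12620 CPM in the median and 17580 CPM in the highest. For comparison, 8.66% of kept barcodes with fibroblast markers and 12.1% of those with macrophage markers had a Ccl5 UMI, at 14.56 and 49.98 CPM. Nkg7, a protein of cytotoxic granules, was counted in 97.2% of members at 1202 to 2074 CPM (median library 1664). Ccl5 and Nkg7 were thus counted in nearly all cells of the class.

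Granzymes, the proteases of cytotoxic granules, were less even. Gzma was counted in 26.2% of members and ranged from 202.4 CPM in VCD_E2_ICI over a median of 786.5 to 2562 CPM in VCD_Vehicle_NormEnv. Gzmb was counted in 51.9% of members at 166.6 to 859.7 CPM (median library 531.8). Gzmk was counted in 53.7% of members at 67.87 to 327.9 CPM (median library 204.5). Fibroblast-marker barcodes had Gzma in 1.93%, Gzmb in 0.767% and Gzmk in 0.0844%, so these shares lay well above those of cells that lack the genes. Prf1, the pore-forming perforin, stood at 0 to 22.89 CPM (11.0% of members and 0.101% of fibroblast-marker barcodes). The Fas ligand gene Fasl stood at 108.1 to 305.4 CPM, interferon gamma (Ifng) at 64.9 to 406.5 CPM and the chemokine Ccl4 at 60.99 to 856.9 CPM, with VCD_E2_ICI highest for Ifng and Ccl4.

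The transcription factors Eomes (58.22 to 221.3 CPM, 42.8% of members) and Tbx21 (52.95 to 260.2 CPM, 43.1%), which drive effector and memory programmes, were both measured in every library. Fibroblast-marker barcodes, which had more UMIs (library medians from 14725 to 23469), held Eomes in 0.383% and Tbx21 in 0.289%. Of the factors kept by naive and central memory cells, Tcf7 stood at 42.38 to 161.0 CPM and Lef1 at 16.66 to 63.93 CPM. Ccr7 was counted in 10.6% of members. It was at 0 CPM in VCD_High_PBDE and at 490.7 CPM in VCD_E2, where it was 239.0 CPM without the cells that carried markers of other types. Cxcr3, a receptor for homing to inflamed tissue, was counted in 41.9% of members. In fibroblast-marker barcodes the shares were 0.468% for Ccr7 and 0.185% for Cxcr3.

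Among genes of tissue residence, Rgs1 was counted in 81.7% of members and Cd69, an early activation and retention molecule, in 45.3%. Itgae, the integrin chain that binds epithelial cadherin, was counted in 8.21% of members at 0 to 90.5 CPM (0.27% of fibroblast-marker barcodes), and Zfp683, a factor of resident memory cells, in 1.03%. Fibroblast-marker barcodes held Rgs1 in 2.91% and Cd69 in 1.34%. Of the inhibitory receptors, Pdcd1 (PD-1) was counted in 29.8% and Ctla4 in 25.4% of members, Lag3 in 13.3%, Havcr2 in 5.87% and Tigit in 4.25%. The fibroblast-marker shares were 0.302% for Pdcd1, 0.763% for Ctla4, 0.929% for Havcr2 and 0.0585% for Tigit, but 8.14% for Lag3 (5.459 CPM against 22.22 CPM in members). Of the receptors shared with NK cells, Klrd1 was counted in 59.4%, Klrk1 in 56.2% and Klrc1 in 31.5% of members, against 0.867%, 0.757% and 0.211% of fibroblast-marker barcodes. Klra9, a receptor of the Ly49 family, was at 0 CPM in Intact and reached 144.4 CPM in VCD_High_PBDE_E2_P4. Zbtb16, a factor of innate-like T cells, had 9 UMIs over all 682 members.

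Receptors for the hormones given were nearly absent from the counts. Pgr, Esr2 and Gper1 had 0 UMIs in the members and Esr1 had 9 UMIs (1.32% of members), against 51.2% of fibroblast-marker barcodes with an Esr1 UMI. Nr3c1, the glucocorticoid receptor, was counted in 72.9% of members at 195.5 to 475.1 CPM, and in 84.3% of the deeper fibroblast-marker barcodes at 132.1 CPM. Cyp1a1, a target of the aryl hydrocarbon receptor, had 0 UMIs. A count of 0 in summed 3′ libraries limits the level and does not show absence of the protein.

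**Figure D2:**
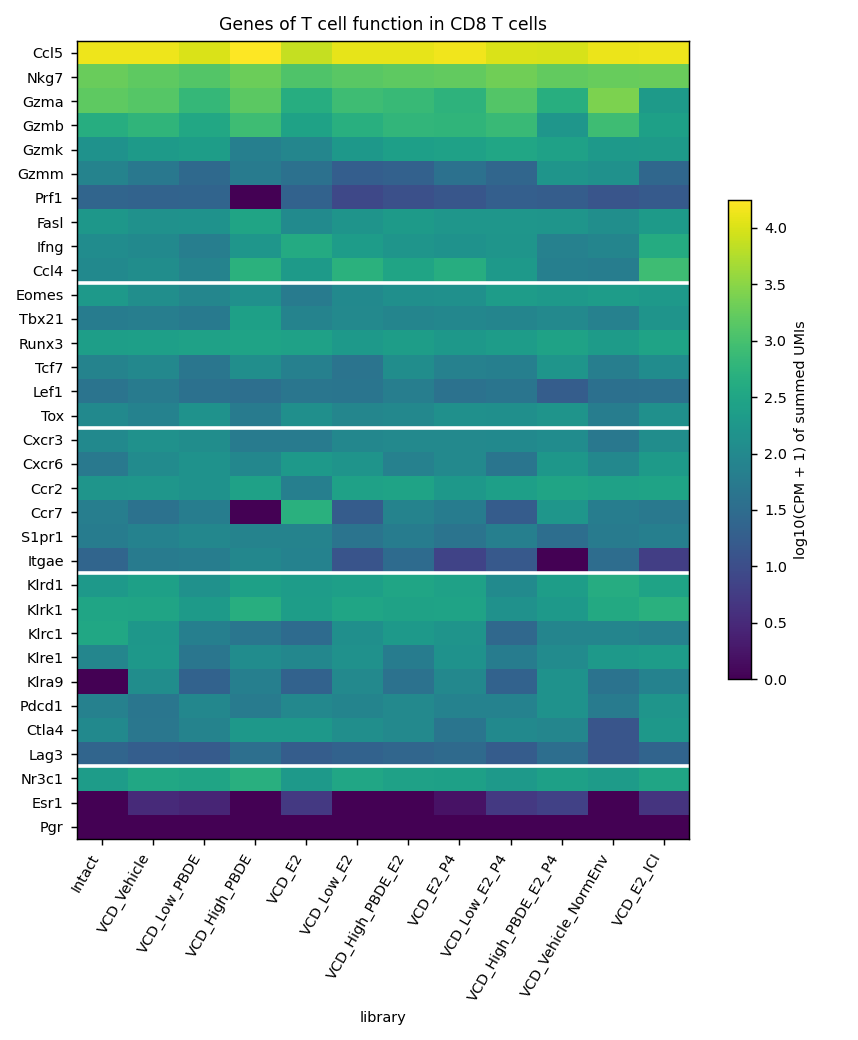
Level of 33 genes of T cell function, as log10(CPM + 1) of the UMIs summed over the CD8 T cells of each of the 12 libraries, with white lines between effector genes, transcription factors, homing genes, receptors and steroid receptors. Ccl5 (7411 to 17580 CPM) and Nkg7 (1202 to 2074 CPM) are high in each library, while Gzma spans 202.4 to 2562 CPM and Pgr is at 0 throughout.

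For a comparison of cell states at equal depth, each cell was thinned to 1000 UMIs. After thinning, 94.7% of members held Ccl5, 26.0% Gzmb, 18.3% Gzmk and 17.7% Gzma. The Ccl5 share was 94.9% ± 4.54 (SD, n = 3) without hormone and 94.0% ± 6.53 (SD, n = 6) with hormone (difference −0.83 percentage points, two-sided exact permutation p = 0.889). This difference did not exceed the spread between libraries, and it changed sign under other settings.

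Gzma and Gzmb marked overlapping cells and Gzmk did not follow them. In the 613 cells without many UMIs of other types' markers, thinned to 1000 UMIs, Gzmb was counted in 74 of 113 cells with Gzma (65.5%) and in 92 of 500 cells without (18.4%), and the share was higher in 12 of 12 libraries. Gzmk was counted in 17.7% of cells with Gzma and 20.0% of cells without. Cells with Gzmb also held more Klra9 (184.7 against 55.7 CPM, higher in 10 libraries and lower in 1), more of the effector markers Klrg1 (160.6 against 61.96 CPM) and Cx3cr1 (52.9 against 6.572 CPM). They held less Tcf7 (39.43 against 108.3 CPM), less Ccr7 (6.733 against 67.59 CPM) and less Il7r, the interleukin 7 receptor of long-lived cells (47.13 against 119.9 CPM, lower in 11 libraries). Cells with Gzmk had less Fcer1g (6.105 against 90.45 CPM, lower in 10 libraries) and less Ikzf2 (26.86 against 105.1 CPM, lower in 11). Ccl4 was counted in 49.0% of cells with Ifng and 16.4% of cells without. These are descriptions over cells of the same libraries and carry no test.

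**Figure D3:**
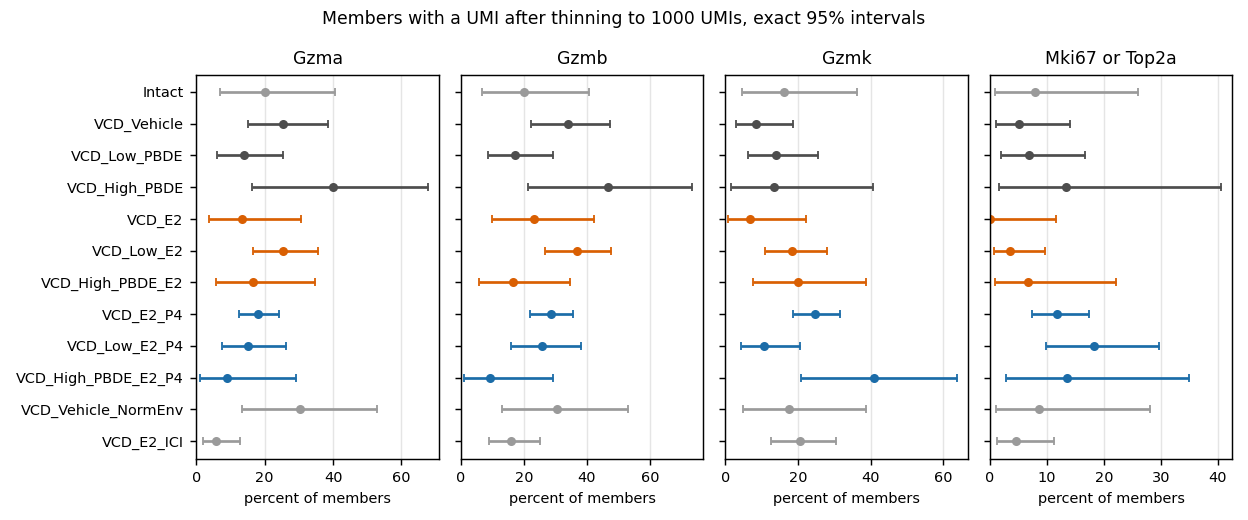
Percent of the CD8 T cells of each library with a UMI of Gzma, Gzmb, Gzmk, or Mki67 or Top2a after thinning each cell to 1000 UMIs, with exact 95% binomial intervals and colours for hormone arm as in the plot of shares. Gzmk runs from 6.67% in VCD_E2 to 40.9% in VCD_High_PBDE_E2_P4, and the Mki67 or Top2a share is 0% in VCD_E2 and 18.2% in VCD_Low_E2_P4.

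Set against CD4 T cells of the same libraries, CD8 T cells were higher in 18 of 27 cytotoxic and effector genes and lower in all 10 genes of helper and regulatory CD4 T cells that were tested. UMIs were summed per library and class and tested with edgeR's quasi-likelihood test, with the library as a block and Benjamini-Hochberg adjustment over all genes tested outside the marker genes of the rules. Of 7281 genes, 1678 passed an adjusted p of 0.05 (23%), 718 higher (9.86%) and 960 lower (13.2%). Without the cells carrying other types' markers 1262 genes passed, and 1025 of the 1678 did so in the same direction. Of the 27 cytotoxic and effector genes listed, 18 were higher and 4 lower, with a median log2 fold change of 1.71 against 0.0261 over all genes.

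Gzmk was 3.89 higher on the log2 scale in CD8 T cells (SE 0.275, edgeR adjusted p = 2.45e-09), with a median of 204.5 CPM against 7.301 CPM in CD4 T cells and higher in 12 of 12 libraries. Eomes was higher by 3.90 (SE 0.311, edgeR adjusted p = 1.24e-08) and Ccl5 by 3.22 (SE 0.189, edgeR adjusted p = 2.76e-10). Gzma had a log2 fold change of 3.74 (SE 0.559), higher in 11 of 12 libraries, since CD4 T cells of one library reached 1268 CPM. Others of the 15 leading genes were Gzmm, Gzmb, Nkg7, the inhibitory receptor Cd160 and the NK receptors Klrc1, Klrc2, Klre1 and Klra9, at log2 fold changes from 2.46 for Klra9 to 3.93 for Gzmm. Samd3, Gpr18 and Ly6c2, the last a surface antigen of memory CD8 T cells, completed that group. Of 11 NK receptor genes tested, 6 were higher. The signalling adaptors Fcer1g (log2 fold change −0.86) and Tyrobp (−0.93) were lower, but neither passed without the cells carrying other types' markers, at 0.35 (edgeR adjusted p = 0.626) and −0.0016 (adjusted p = 0.999).

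CD4 T cells held more Il13 (log2 fold change −5.64, SE 0.249, edgeR adjusted p = 1.66e-11), with 0 CPM in the median CD8 library against 67.99 CPM. Il5 was lower in CD8 T cells by a log2 fold change of −3.79 (SE 0.395) and lower in 12 of 12 libraries, and the regulatory cytokine Il10 by −3.83 (SE 0.332). Cd40lg, the ligand through which helper cells activate B cells, stood at a median of 23.24 CPM against 195.3 CPM. Areg, a growth factor for epithelium, stood at 72.72 against 722.1 CPM. Il2ra, Tnfrsf4, Tnfsf8, Tnfsf11, Csf2, Ccl1, Pxdc1, Nav2, AA467197 and Ndrg1 were the other leading genes that were lower. The 10 helper and regulatory genes tested, among them Cd40lg, Il2ra and Tnfrsf4, had a median log2 fold change of −1.90. Of 20 immediate early and heat shock genes, 11 were lower and 1 higher, and without the cells carrying other types' markers 11 of 18 were lower and 0 higher. All 30 named genes also passed without the cells carrying other types' markers.

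Against NK cells, the CD8 T cells were higher in T cell receptor signalling and lower in NK receptors and in several granule genes. In the same edgeR test 1477 of 5175 genes passed (28.5%), 792 higher (15.3%) and 685 lower (13.2%). Of 16 T cell receptor signalling genes, 14 were higher and 1 lower. NK cells were chosen by Ncr1 and Klrb1c, which were left out, but the 12 other NK receptor genes tested were all lower in CD8 T cells, at a median log2 fold change of −2.99.

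Themis, a T cell signalling protein, had 427 UMIs in CD8 T cells and 0 in NK cells, at least 86.1-fold higher against a floor of 3 counts over all NK cells. Gzmk had 1260 UMIs against 6 (225.8 against 1.777 CPM), log2 fold change 6.69 (SE 0.268, edgeR adjusted p = 1.04e-13). That SE is derived from the F value of the test and is unreliable with 6 UMIs in NK cells. Of the 27 cytotoxic genes, 14 were lower and 6 higher. Gzma was lower, at 837.1 against 10340 CPM, as was Prf1, at 15.05 against 166.5 CPM, while Gzmm was higher by 2.45 on the log2 scale (SE 0.274, edgeR adjusted p = 5.41e-07). Without the cells carrying other types' markers, 14 of 26 were lower and 4 higher. The checkpoint genes Pdcd1 (log2 fold change 3.85, SE 0.403) and Ctla4 (3.84, SE 0.235) and the T lineage factor Bcl11b (3.83, SE 0.2) were higher. The Ly49 receptor genes Klra4 (−6.64, SE 0.301), Klra8 (−5.89, SE 0.231) and Klra3 (−4.67, SE 0.274) were lower, as was Irf8, at a median of 40.8 against 1466 CPM. Ly49 genes are near-identical copies, so reads may be split among them. Of the 30 named genes 29 also passed without the cells carrying other types' markers. The exception, Retnla, a macrophage gene, was no longer tested there. In all members 5 of 7 macrophage markers tested were higher and 0 lower, and of 4 dendritic markers 3 were higher and 1 lower. Without the cells carrying other types' markers, 1 of 2 macrophage markers and 0 of 2 dendritic markers were higher, with 1 lower on each list. The haemoglobin gene Hba-a2 also passed as higher (log2 fold change 4.25), as did both red cell and mast cell markers tested. Hba-a2 was higher in 7 libraries and lower in 3, with medians of 5.098 against 4.413 CPM and 1523 CPM in the highest CD8 library. Its fold change fell to 1.32 at the lowest, and 1 of 19 alternatives lost the call.

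**Figure D4:**
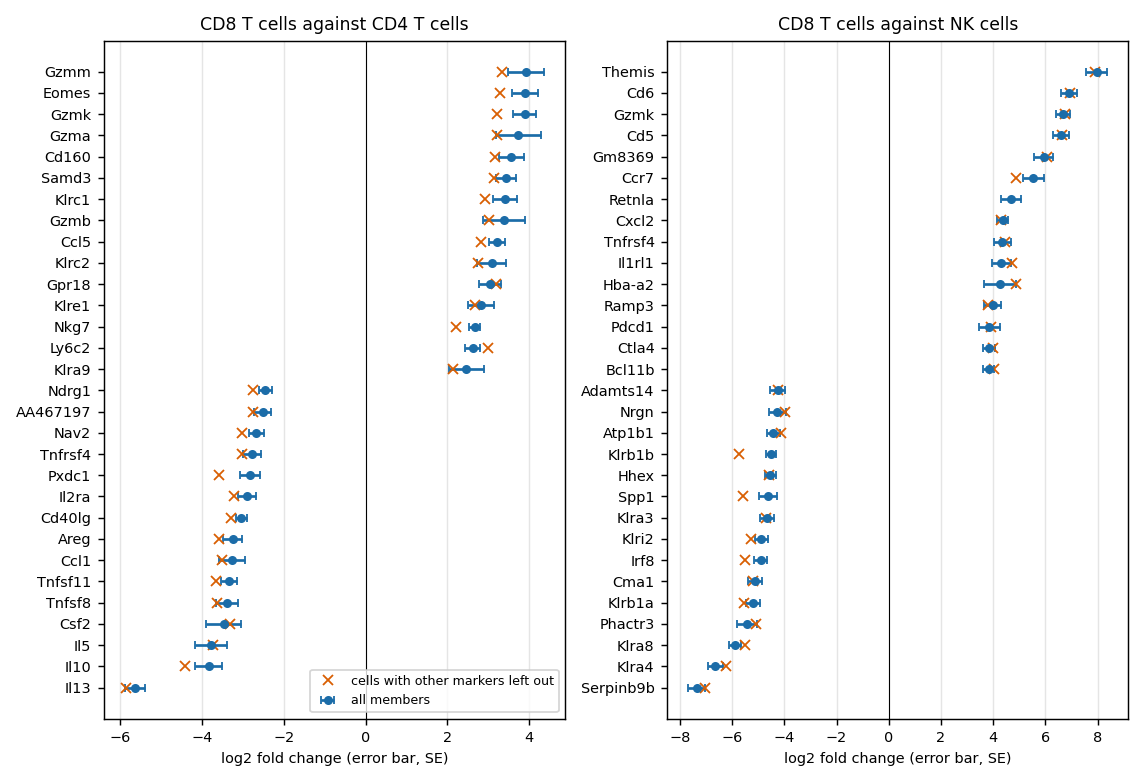
Log2 fold change, with its SE, of the 15 higher and 15 lower genes with the largest change among genes passing the edgeR test, for CD8 T cells against CD4 T cells (left) and NK cells (right). The SE is derived from the F value of the test and is unreliable where a class holds few UMIs. Crosses give the value without cells carrying markers of other types. Gzmk is among the leading genes on both sides, at 3.89 and 6.69, and Retnla has no cross.

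Within CD8 T cells the hormone and PBDE arms were compared with edgeR on the 9 libraries of the layout, with hormone and PBDE as additive terms and 4 residual degrees of freedom. E2 or E2 + P4 against no hormone changed 0 of 6345 genes (0.0%), with 306 at an unadjusted p under 0.05. With the cells carrying other types' markers left out, 1 gene passed, the interferon-induced chemokine Cxcl10 (log2 fold change 3.75, edgeR adjusted p = 0.0113; 1.69 and adjusted p = 0.936 in all members). The 5 genes with the smallest p did not pass. Ccl22, a chemokine of mature dendritic cells, was at 0 CPM in the 3 libraries without hormone and at 2.922 to 191.3 CPM with it (adjusted p = 0.273). Ifitm3, an interferon-induced membrane protein (log2 fold change 1.16), Slamf9 (2.12) and the matrix gene Fn1 (1.99) each had an adjusted p of 0.408. Without the cells carrying other types' markers, Ifitm3 was at 0.57 and Fn1 at 0.42, and Ccl22 and Slamf9 were too low to be tested, while Col3a1 was at 1.04 (adjusted p = 0.156). In VCD_Vehicle_NormEnv, outside the layout and without hormone, all 5 genes stood within or above the range of the libraries with hormone. The values there were 4.066 CPM for Ccl22, 345.6 for Ifitm3, 65.06 for Slamf9, 565.2 for Fn1 and 288.7 for Col3a1. The CD8 T cells of that library summed to 245927 UMIs. Its Ccl22 value thus rests on very few UMIs, as do the lowest Ccl22 values with hormone, so the place of Ccl22 in that range says little. Col3a1 stood in all members at 67.87 to 163.2 CPM without hormone and 177.0 to 545.1 CPM with it (log2 fold change 1.23, SE 0.251, adjusted p = 0.408). Col3a1 is a collagen of fibroblasts. Fibroblast marker genes, all 10 with a UMI, summed to 927.6 to 1279 CPM without hormone and to 659.0 to 3500 CPM with it, and their part in this difference was not tested. The 5 red cell and mast cell markers summed to 19.58 to 33.94 CPM without hormone and to 49.9 to 1392 CPM with it. They summed to 48.79 CPM in VCD_Vehicle_NormEnv, and of the 2 markers tested 0 passed. None of 12 naive and central memory, 27 cytotoxic, 33 interferon-induced, 6 steroid receptor or 10 estrogen target genes passed.

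Adding P4 to E2 gave 20 genes that passed the test (0.315% of 6345), among them 9 of 22 listed cell cycle genes. Of the 20, 18 were higher (0.284%) and 2 lower (0.0315%). The 9 cell cycle genes were all higher, and all 22 on the list had a positive log2 fold change with a median of 1.39 against −0.011 over all genes. Some other lists leaned the other way. Fold changes were positive in 2 of 18 immediate early and heat shock genes (median −0.493), 3 of 17 glucocorticoid and progesterone target genes (−0.412) and 1 of 11 NK receptor genes (−0.517). Of the genes on these lists 0 passed. In each of the 18 genes the E2 + P4 library lay above the E2 library at all 3 PBDE levels, and within each level both libraries carried the same library code, a tag in the deposited data that splits the libraries into 5 and 7 and whose meaning is not stated. In all 20 genes the E2 and E2 + P4 libraries did not overlap. The genes were chosen by this contrast of the same libraries, so both patterns follow largely from the choice and are not separate support. The share of all 6345 genes with either pattern is not given here. The list of cell cycle genes was drawn up with earlier results of these data known.

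Cenpf, a kinetochore protein of dividing cells, stood at 8.317, 11.69 and 19.67 CPM in the E2 libraries without, with low and with high PBDE. With E2 + P4 it stood at 55.25, 151.7 and 105.5 CPM in the same order, and without hormone at 6.526, 15.37 and 22.62 CPM. The E2 + P4 libraries lay above both other arms (log2 fold change against E2 3.13, SE 0.364, edgeR adjusted p = 0.002). Ccna2, the cyclin of DNA replication and mitotic entry, was at 8.317, 13.15 and 0 CPM with E2 and at 57.13, 116.8 and 94.39 CPM with E2 + P4 (log2 fold change 3.20, SE 0.465, edgeR adjusted p = 0.0118). Its no hormone libraries lay between, at 45.68, 30.74 and 33.94 CPM. Top2a, the topoisomerase of replicating cells, was at 33.27, 102.3 and 54.09 CPM with E2 and at 132.5, 276.6 and 238.8 CPM with E2 + P4, and its no hormone libraries (132.7, 128.1 and 203.6 CPM) overlapped those with P4. The CD8 T cells of the E2 libraries summed to 240465, 684344 and 203351 UMIs in the same order. The values of Cenpf and Ccna2 with E2 thus rest on few UMIs, and their fold changes are imprecise.

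The other genes that rose were the mitotic ubiquitin enzyme Ube2c (log2 fold change 1.99, SE 0.304), the kinase subunits Cks2 (1.70, SE 0.273) and Cks1b (1.83, SE 0.303), the mitotic genes Birc5, Cdca3, Cdca8, Ccnb2, Smc2 and Mki67, the chromatin genes H2afx, Hmgb2, Hist1h1b and Tmpo, and Stmn1 and 2810417H13Rik. They ran from 1.13 for Hmgb2 to 3.35 for Hist1h1b. For H2afx, Top2a, Tmpo, Hist1h1b and 2810417H13Rik the no hormone libraries overlapped the E2 + P4 libraries. Outside the layout, the libraries without added hormone lay within the range of the E2 + P4 libraries for several of the 18 genes, VCD_Vehicle_NormEnv for 10 and Intact for 10 of them. Against no hormone, a contrast added after seeing the data, E2 + P4 changed 1 of 6345 genes (0.0158%), Cenpf (log2 fold change 2.98, edgeR adjusted p = 0.00278). All 18 genes had a positive fold change in that contrast, but they were chosen as higher in the same E2 + P4 libraries. That contrast gave 18 genes without the cells carrying other types' markers.

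Rgs1, a regulator that limits chemokine receptor signalling, was lower with P4. It stood at 765.2, 578.7 and 521.3 CPM with E2 and at 395.5, 250 and 249.9 CPM with E2 + P4 (log2 fold change −1.10, SE 0.196, edgeR adjusted p = 0.027). The no hormone libraries, at 548.2, 430.4 and 588.2 CPM, lay above those with P4. Pmaip1, a cell death gene, was also lower (−1.38, SE 0.263, edgeR adjusted p = 0.0389), but not without the cells carrying other types' markers (−0.68, edgeR adjusted p = 0.701). Tmpo (adjusted p = 0.0862) and 2810417H13Rik (adjusted p = 0.145) did not pass without those cells either. The other 17 of the 20 genes did, and 28 genes passed in all, 20 higher and 8 lower. Tpx2, Tacc3, Tubb4b and the interferon-induced Ifi27l2a were higher in that fit and did not pass with all members. Ifng (log2 fold change −1.24, edgeR adjusted p = 0.0339), the Ly49 receptor Klra7 (−2.24), the ligand Tnfsf8 (−2.32), Sytl2, Jmy, Chd2 and Gm12840 were lower there, and likewise did not pass with all members.

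At 1000 UMIs a cell, the share of cells with Mki67 or Top2a was higher with E2 + P4 than with E2 at each PBDE level, which at high PBDE rested on 3 against 2 cells. It was 11.7% (21 of 179), 18.2% (12 of 66) and 13.6% (3 of 22) with E2 + P4 at no, low and high PBDE. With E2 it was 0 of 30, 3.45% (3 of 87) and 6.67% (2 of 30). For the 0 of 30 the exact 95% binomial interval reached 11.6%, and a floor of 3 cells is 10.0%. The no hormone libraries held 5.08%, 6.9% and 13.3%, which overlapped both arms. Without thinning the shares were 27.9%, 39.4% and 18.2% with E2 + P4 and 6.67%, 25.3% and 23.3% with E2, so the order was the opposite at high PBDE. Mki67 and Top2a are both among the genes called in this contrast on the same cells, so these shares are not separate support.

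These calls rested on few libraries and on the limits that chose the cells. With at least 3 Cd3 and 2 Cd8 UMIs a cell, 2 genes passed, Cenpf and Cks2. Without VCD_Low_E2 or without VCD_Low_E2_P4 0 genes passed, without either high PBDE library of the contrast 4 passed, without VCD_E2 11, and without VCD_E2_P4 31. No fold change of the 20 genes turned its sign in the 17 alternatives, and that of Cenpf ran from 2.53 to 3.40 and that of Ccna2 from 2.86 to 3.98. Since the E2 and E2 + P4 libraries of these genes did not overlap, a change of sign was unlikely from the start. VCD_Low_E2_P4, the highest library for most of these genes, also had the most B cell and plasma cell marker UMIs, with 4 of the 5 genes detected and 2611 CPM summed against 9.835 to 37.43 CPM in the E2 libraries, and without the 14 cells carrying other types' markers no library exceeded 68.33 CPM. It also had the most fibroblast marker UMIs, 3500 CPM against 659.0 to 1606 CPM in the E2 libraries. All 10 fibroblast markers had a positive fold change with P4 (median 0.80 on the log2 scale, 0.50 without the cells carrying other types' markers), and none passed. Their part in the calls was not tested. In CD4 T cells the same contrast changed 0 of 6906 genes (0.0%; 407 at an unadjusted p under 0.05; smallest edgeR adjusted p = 0.714), with positive fold changes for all 18 genes (0.05 to 2.51 on the log2 scale). The difference of the contrast between CD8 and CD4 T cells passed for 0 of 7387 genes (0.0%; 248 at an unadjusted p under 0.05; smallest edgeR adjusted p = 1.0). Without the cells carrying other types' markers, 3 genes passed in CD4 T cells, Cxcl2, Hbb-bt and Zfp36, all lower with P4. The difference between the classes passed there for 1 gene, Rgs16 (log2 difference 2.51, edgeR adjusted p = 0.0264). These 4 genes are named because they passed, after their values were seen. For the 20 genes above, a difference between both T cell classes was thus not shown.

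**Figure D5:**
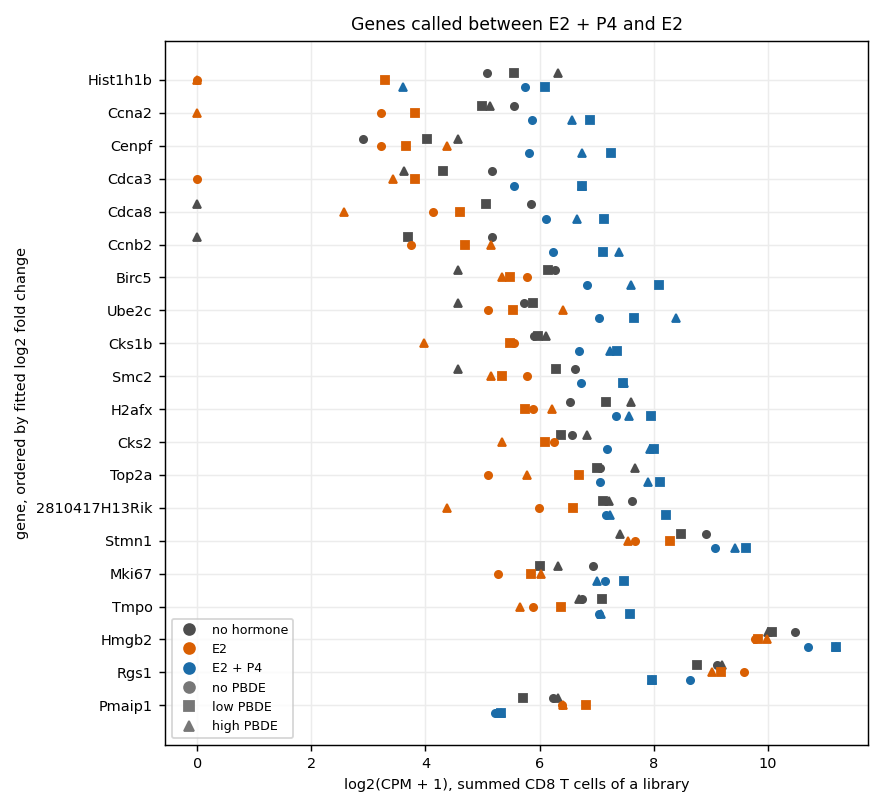
Level of the 20 genes that passed between E2 + P4 and E2, as log2(CPM + 1) of the summed CD8 T cells of each of the 9 layout libraries, coloured by hormone arm with symbols for PBDE level and ordered by fold change. E2 + P4 libraries lie above E2 libraries in 18 genes and below them in Rgs1 and Pmaip1, and the no hormone libraries overlap those with P4 in 5 genes.

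Because these genes moved together, the 120 bases before their starts were read from a table of RefSeq promoters (GRCm38.p6), in which 13 of the 18 were matched by symbol. Promoters of cell cycle genes are known to carry CCAAT boxes, bound by NF-Y, and the cell cycle genes homology region (CHR, TTTGAA). The first motif, on either strand, was found in 11 of 13 and in 21.3% of all 32851 promoter windows of that length. The second, also on either strand, was found in 5 of 13 and 7.12% of windows, and either motif in 12 of 13 and 26.9%. A match is not a binding site. The sequences of 5 genes described above are shown 5′ to 3′ on the gene's strand, with both motifs or their reverse complements in capitals. They lie at chr1:189688087-189688206 (Cenpf, minus strand), chr2:164769809-164769928 (Ube2c, plus), chr13:51645112-51645231 (Cks2, plus), chr3:89418292-89418411 (Cks1b, minus) and chr11:99024190-99024309 (Top2a, minus). No entry was matched for Ccna2, H2afx, Stmn1, Hist1h1b and 2810417H13Rik.
Cenpf: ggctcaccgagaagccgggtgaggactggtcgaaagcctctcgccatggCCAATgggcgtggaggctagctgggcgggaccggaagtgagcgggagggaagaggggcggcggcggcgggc
Ube2c: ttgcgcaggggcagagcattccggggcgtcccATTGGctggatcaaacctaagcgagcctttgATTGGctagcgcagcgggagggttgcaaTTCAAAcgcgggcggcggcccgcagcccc
Cks2: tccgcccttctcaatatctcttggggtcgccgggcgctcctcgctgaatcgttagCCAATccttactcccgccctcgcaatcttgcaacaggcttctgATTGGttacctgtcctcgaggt
Cks1b: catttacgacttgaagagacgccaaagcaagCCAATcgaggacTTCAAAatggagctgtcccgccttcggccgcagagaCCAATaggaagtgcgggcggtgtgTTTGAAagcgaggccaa
Top2a: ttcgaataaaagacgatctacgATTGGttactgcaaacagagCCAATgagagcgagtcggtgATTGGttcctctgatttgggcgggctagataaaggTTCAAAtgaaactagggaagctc

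Low PBDE changed 1 of 6345 genes (0.0158%). Ccl22 had a log2 fold change of −4.63 (SE 0.644, edgeR adjusted p = 0.04). It stood at 0, 191.3 and 30.76 CPM without PBDE and at 0, 2.922 and 6.148 CPM with low PBDE, for no hormone, E2 and E2 + P4. VCD_E2 was thus far above the rest, and without VCD_Vehicle, VCD_Low_E2 or VCD_High_PBDE no gene passed. With library code as a term its log2 fold change was −0.24 (edgeR adjusted p = 1.0), and 1 other gene passed. Without the cells carrying other types' markers Ccl22 was too low to be tested. Dendritic marker genes, all 10 with a UMI, summed to 54.95 to 8893 CPM over the 12 libraries and to 47.76 to 160.0 CPM without those cells. Whether Ccl22 came from the T cells was not tested.

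Between high PBDE and no PBDE, 3 of 6345 genes passed (0.0473%), and the same number passed without the cells carrying other types' markers. AY036118 was lower (log2 fold change −3.76, SE 0.39, edgeR adjusted p = 0.000443), at 11.31, 24.59 and 22.21 CPM with high PBDE against 193.6, 262.0 and 327.7 CPM without PBDE. Gm42418 was lower (−2.18, SE 0.268, edgeR adjusted p = 0.00202), at 554.3, 413.1 and 444.2 CPM in high PBDE libraries and 1218 to 3268 CPM in libraries without PBDE. Both genes overlap ribosomal RNA sequence. VCD_E2_ICI, which received no PBDE, was also low in them, at 45.54 and 708.5 CPM. Gm12840 was higher (1.78, SE 0.283, edgeR adjusted p = 0.0289), at 271.5, 236.1 and 83.29 CPM against 69.61, 58.22 and 28.88 CPM. The 3 high PBDE libraries and VCD_E2_ICI all carried the second library code, and the 3 libraries without PBDE the first. High PBDE and library code thus cannot be told apart between these sets of libraries. The other 3 libraries of the second code, VCD_Low_E2, VCD_Low_E2_P4 and VCD_Vehicle_NormEnv, stood at 122.0 to 249.9 CPM for AY036118 and 1651 to 2228 CPM for Gm42418. With library code as a term none of these 3 genes passed (log2 fold change −3.19 and edgeR adjusted p = 0.153 for AY036118, −1.70 for Gm42418 and 0.92 for Gm12840), and 2 other genes did. That fit separates code from dose only through the low PBDE libraries, which carried both codes, so it cannot decide between them. None of the 7 xenobiotic response genes tested passed at either dose, and Ahr, the aryl hydrocarbon receptor, was at 26.17 CPM in all members and 8.736 CPM without the cells carrying other types' markers.

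Intact, VCD_Vehicle_NormEnv and VCD_E2_ICI had no replicate and were compared as values, with exact 95% Poisson intervals for counting error. A gene was considered with at least 10 UMIs in both libraries, and a change was counted from 2-fold. Against VCD_Vehicle, Intact differed in 121 of 2912 genes (4.16%) and in 8 of 205 listed genes. Gata3 stood at 128.2 CPM in Intact (interval 85.2 to 185) and 34.81 CPM in VCD_Vehicle (19.9 to 56.5), and Cd69 at 206.0 (150 to 276) against 95.72 CPM (69.5 to 128). Cxcr6, a receptor of tissue-resident cells, was at 50.37 against 110.9 CPM. The count of listed genes thus lay near the background of all genes.

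VCD_Vehicle_NormEnv, against VCD_Vehicle, differed in 187 of 3268 genes (5.72%) and in 22 of 219 listed genes. Gzmm was at 138.3 CPM (interval 95.7 to 193) against 50.03 CPM (31.7 to 75.1), and Cxcr3 at 48.79 against 139.2 CPM. The heat shock gene Hspa1a was at 231.8 against 84.84 CPM. Of the cell cycle genes, Ccnb2 was at 126.1 against 34.81 CPM and Ube2c at 162.6 against 52.21 CPM, while Pcna was at 77.26 against 211.0 CPM. Markers of myeloid cells moved with these genes, with Lyz2 at 2204 against 978.9 CPM, H2-Ab1 at 2456 against 1188 CPM and Cd68 at 81.32 against 30.45 CPM. Without the cells carrying other types' markers 18 of the 23 cells remained, with Lyz2 at 16.67 against 7.964 CPM, Gzmm at 158.3 against 61.06 CPM, Cxcr3 at 66.66 against 161.9 CPM and Hspa1a at 150 against 21.24 CPM. Ube2c was then less than 2-fold higher, at 116.7 against 63.71 CPM, with Ccnb2 at 150.0 against 42.48 CPM and Pcna at 66.66 against 223.0 CPM. Both libraries are of vehicle groups, without hormone or PBDE feeding, and they carried different library codes.

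VCD_E2_ICI, against VCD_E2, differed in 202 of 3132 genes (6.45%) and in 28 of 214 listed genes. Of the 20 cytotoxic and effector genes considered, 5 were at least 2-fold higher with ICI and 2 at least 2-fold lower, with Ccl4 at 856.9 CPM (interval 784 to 935) against 207.9 CPM (154 to 274), Eomes at 197.4 against 58.22 CPM and Gzmk at 202.4 against 87.33 CPM. The NK receptors Klrk1 (502.7 against 228.7 CPM) and Klre1 (224.3 against 91.49 CPM) were also higher. Gzma went the other way, at 202.4 CPM (168 to 242) against 436.7 CPM (357 to 529), as did Ly6c2 at 364.4 against 781.8 CPM. Satb1, a chromatin organiser of T cells, was at 47.23 against 232.9 CPM and Ccr7 at 50.6 against 490.7 CPM. Without the cells carrying other types' markers, Satb1 was at 50.1 against 244.6 CPM and Ccr7 at 47.83 against 239.0 CPM. Lyz2 and H2-Ab1, genes of myeloid cells, were more than 2-fold higher with all cells (1712 against 640.4 CPM for Lyz2) and at 13.66 against 22.24 CPM for Lyz2 without the cells carrying other types' markers. The fibroblast markers Dcn (350.9 against 153.9 CPM) and Pi16 were also higher, and Dcn was at 127.5 against 144.5 CPM without those cells. The red cell and mast cell markers summed to 6872 CPM in VCD_E2_ICI and 49.9 CPM in VCD_E2, and their part in these differences was not tested. VCD_E2_ICI and VCD_E2 carried different library codes. Each comparison is of 1 library with 1 library, so a difference between groups cannot be told apart from one between libraries.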

How the data were processed

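Dissociated mammary gland cells of 12 groups were sequenced with Chromium 3′ v3 chemistry. Per the labels, Cell Ranger 3.1.0 and the mm10 build were used. The deposited files hold raw UMI counts of 27998 listed genes in 58620 barcodes. T cell receptor constant genes were not used here, and results that rest on certain genes are not reported here. Members and gene lists (19 of cell state, 8 of cell type markers) were chosen with earlier results of these data known, and the study's own tests on cells were not repeated, since cells of 1 library are not replicates.

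CD8 T cells were summed per library and tested with edgeR 4.0.16 (quasi-likelihood, TMM, filterByExpr, Benjamini-Hochberg, threshold 0.05) in R 4.3.3. The SE of a log2 fold change was its size divided by the square root of the F value of the test. Such an SE does not estimate counting error. It is unreliable where a class holds few UMIs, such as Gzmk in NK cells, or Il13, Klra4 and Klra8 in CD8 T cells. The layout fit held 9 libraries. CD4 T cells were chosen by the same limits with Cd4 in place of Cd8, and NK cells by at least 2 UMIs of Ncr1 and Klrb1c without Cd3. Genes named in the text were those called, if 24 or fewer, the 5 with the smallest p if none was called, and for cell classes the 15 with the largest fold change on each side with a mean of at least 50 CPM in the higher class. Genes of the lists were named by their level or, between single libraries, by a 2-fold change. Shares were compared by exact permutation (SciPy 1.17.1), with exact binomial intervals at 95%. Cells were thinned to 1000 UMIs with a fixed seed. Cells with other markers held at least 20 UMIs of macrophage, dendritic, or B and plasma markers, 50 of fibroblast, or 10 of endothelial or epithelial markers. The scripts were tested on simulated data. UMIs come from the 3′ end and were not scaled by length, so different genes are not ranked by level. Alternatives included DESeq2 1.42.0, other filters and cell limits, and leaving out each library.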

Additional observations from a re-analysis of the deposited data

Results flagged for a closer look

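Of 32 values looked at in the 6 libraries given hormone, 3 had a library set apart by Dixon's rule. Its gap to the nearest neighbour, as a share of the range, exceeded the 95% critical value of 0.625 for 6 samples. Chance exceeds that value in about 1 in 20 groups, so some flags among 32 values can come from chance. These libraries also mix hormone arms and PBDE levels. Ccl22 and Gm12840 had already been called in contrasts that used them. VCD_E2_P4 held 4.09% CD8 T cells among kept barcodes and the other 5 libraries 0.818 to 2.03%. Ccl22 stood at 191.3 CPM in VCD_E2 and at 2.922 to 30.76 CPM in the others. Gm12840 stood at 236.1 CPM in VCD_High_PBDE_E2 and at 28.88 to 100.8 CPM in the others.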

How the results depend on the processing

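Counts of genes in the layout moved with the filter and with single libraries. For E2 or E2 + P4 against no hormone (0 genes), 50 passed with no low count filter, 16 with a filter at 3 counts, 1 without cells carrying other types' markers, 4 with library code as a term, 1 for E2 alone, and 0 to 6 when 1 library was left out. For E2 + P4 against E2 (20 genes), the counts were 118 with no filter, 53 at 3 counts, 2 with at least 3 Cd3 and 2 Cd8 UMIs, 31 with library code, and 0 to 31 with 1 library left out; added after seeing the data, the contrast with no hormone gave 1, that in CD4 T cells 0 and the difference of classes 0. DESeq2 gave 20. For low PBDE (1 gene), DESeq2, the stricter cell limits, a mitochondrial limit of 10% and leaving out cells with other types' markers each gave 0, no filter gave 20, and leaving out 1 library gave 0 to 5. For high PBDE (3 genes), no filter gave 42, a filter at 3 counts 5, leaving out 1 library 2 to 6, and library code as a term 2, none of them among the 3. Among cells with no UMI of 6 genes of other types (117 members), 82 genes passed against CD4 T cells and 156 against NK cells, with fewer cells and libraries, and the layout and the thinned shares could not be fitted. Among all members, 1399 to 1648 genes passed against CD4 T cells and 1296 to 1500 against NK cells with 1 library left out.

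The hormone difference in the share of kept barcodes (0.606 percentage points) became −0.0602 among cells with no UMI of other types, and ran from 0.123 to 0.844 with 1 library left out. That in the CD8 share of T cells (11.9) ran from 8.05 to 18.9. The Ccl5 share difference (−0.83) turned to 0.636 with stricter cell limits, 2.85 with a mitochondrial limit of 10%, 1.23 without cells carrying other types' markers and 1.53 without thinning, and ran from −2.57 to 1.74 with 1 library left out. The cause of these changes was not tested. For genes named between E2 + P4 and E2, 218 of 340 alternative values kept direction and call, 122 lost the call and 0 reversed. These genes were chosen by that contrast, so a reversal was unlikely from the start. A replicate block could not be fitted, since each group holds 1 library. Hormone contrasts had PBDE level as a term or stratum, PBDE contrasts had hormone as a term, and cell classes were compared within libraries.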
